A study of Mus musculus with 59 samples.

Results

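Imprinted retrogenes are intronless copies of other genes that landed inside an intron of a host gene and are read from 1 parental chromosome. The 7 mouse genes described here are 4 imprinted genes nested in a host and 3 of the hosts: Mcts2 inside H13, Zrsr1 inside Commd1, Nnat inside Blcap, and Nap1l5, which lies inside Herc3. They were taken by name, with every probe set that the platform annotation gives to 1 of them. Mcts2 was chosen by its measured log2 values. An earlier look at these arrays had found it lower in iPSC from blood cells than from fibroblasts and widely spread over the origin groups. Its values in blood-derived iPSC and its levels in fibroblast-derived iPSC therefore describe the choice and are given without a test. A total of 5 of the 7 genes had a named probe set, and together they had 10 probe sets of the 22626 on the array, which named 11807 genes. Mcts2, Nap1l5 and Blcap had 1 probe set each, Commd1 had 2 and H13 had 5. Zrsr1, Nnat and Herc3 had 0 named probe sets and were not analysed here, so Mcts2 with H13 was the only nested gene that could be compared with its host.

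At an imprinted retrogene the promoter is a CpG island that is methylated in the egg, so that the maternal copy stays silent and the paternal copy is transcribed. ZFP57, which binds the methylated hexamer TGCCGC, and its partner TRIM28 protect such methylation in the early embryo and in embryonic stem cells. In mouse, transcription from the unmethylated Mcts2 promoter goes with the use of upstream polyadenylation sites of H13, so host and retrogene are known to be linked at the level of transcript ends. Mcts2 is a copy of the X-linked Mcts1, whose protein acts in translation reinitiation and ribosome recycling. H13 encodes signal peptide peptidase, a membrane protease of the endoplasmic reticulum.

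RNA from 59 mouse lines was measured, with 1 Affymetrix array for each. The lines were 48 iPSC (induced pluripotent stem cell) clones, 1 Adeno-iPSC clone from fetal liver and 6 NT-ESC subclones, which are embryonic stem cell lines from blastocysts cloned by transfer of an iPSC nucleus. The lines they were set against were 4 clones of targeted KH2 ESC. The series describes the iPSC as made from tissues of chimeric mice whose ESC-derived cells carry an inducible cassette for myc, Klf4, Oct4 and Sox2. Of the iPSC, 31 came from blood cells (11 from HSCs, 11 from GMPs and 9 from granulocytes, all from mouse 1, mouse 2 or chimera 2). Another 11 came from fibroblast preparations, 5 labelled PF from mouse 1 and mouse 2 and 6 labelled TTF from chimera 2, and 6 came from MEFs (mouse embryonic fibroblasts) of chimera 1. The NT-ESC came from Adeno-2 (3 subclones), from the HSC-derived clone iPSC-7 (1) and from the granulocyte-derived clone iPSC-15 (2). All lines grew with serum and LIF on irradiated MEFs and were preplated to reduce them. Each line is 1 clone, clones of 1 animal share that animal, TTF and chimera 2 cannot be told apart among fibroblast-derived clones, and neither animals nor array batches are labelled for ESC. P-values measure only the spread between these clones.

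The values are log2 intensities on a scale with each array's mean near 0, and levels were not compared between probe sets. Probes carry no stated position within a gene, and Mcts2 lies within H13 on the same strand, so RNA of the retrogene and unspliced or alternative RNA of the host cannot be told apart by these probe sets. The arrays of NT-7, NT-8 and NT-9 stood apart, with mean correlations to the other arrays of 0.889 to 0.940, against 0.982 to 0.993 for the other 56. NT-ESC differences are given with and without them. Pluripotency markers (8 of 9 genes measured) averaged 4.67 in blood-derived, 4.40 in fibroblast-derived and 4.69 in MEF-derived iPSC, and 4.75 in ESC. An exception was Pou5f1, which was 0.28 in the PF-derived clone iPSC-32. Markers of blood cells (10 of 11 genes measured) stayed near the bottom of the scale, from -2.51 to -2.25 in blood-derived iPSC and from -2.61 to -2.25 in ESC, and the leukocyte gene Ptprc averaged -3.89 in blood-derived iPSC and -3.88 in ESC. Fibroblast and feeder markers (10 of 11 measured) had a mean level between 0.39 and 2.00 in blood-derived, between 1.34 and 2.62 in fibroblast-derived and between -0.11 and 1.04 in MEF-derived iPSC, and between -0.06 and 1.48 in ESC. In bulk RNA, fewer cells of a type and less RNA per cell cannot be told apart.

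The promoters of Mcts2, its host and Nap1l5 are shown because they are the DNA that an imprint at these loci would mark. All are taken from RefSeq on GRCm38.p6 and run 5′ to 3′ on the gene's own strand from 250 bases before the annotated start to 50 bases after it. Capitals mark the hexamer TGCCGC, searched on both strands (GCGGCA on the other).
Mcts2 promoter: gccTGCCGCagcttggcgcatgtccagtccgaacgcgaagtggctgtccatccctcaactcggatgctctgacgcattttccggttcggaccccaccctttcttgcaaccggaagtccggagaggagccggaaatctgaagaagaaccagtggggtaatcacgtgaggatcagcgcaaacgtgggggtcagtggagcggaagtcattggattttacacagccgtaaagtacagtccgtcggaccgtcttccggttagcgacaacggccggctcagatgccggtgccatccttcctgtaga
H13 promoter: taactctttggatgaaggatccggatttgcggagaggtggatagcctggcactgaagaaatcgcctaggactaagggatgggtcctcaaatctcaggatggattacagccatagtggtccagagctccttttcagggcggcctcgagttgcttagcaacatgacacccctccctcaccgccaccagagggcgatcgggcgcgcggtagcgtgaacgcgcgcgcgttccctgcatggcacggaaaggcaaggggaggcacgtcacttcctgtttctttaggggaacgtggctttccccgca
Nap1l5 promoter: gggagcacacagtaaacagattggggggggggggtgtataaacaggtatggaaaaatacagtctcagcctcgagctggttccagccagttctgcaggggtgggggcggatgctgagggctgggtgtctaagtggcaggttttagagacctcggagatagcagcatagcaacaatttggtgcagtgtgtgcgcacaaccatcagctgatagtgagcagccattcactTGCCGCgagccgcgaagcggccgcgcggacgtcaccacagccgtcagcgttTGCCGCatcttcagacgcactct
The Mcts2 window (chr2:152686898-152687197, plus strand) held 25 CpG and 1 hexamer. The H13 window (chr2:152669211-152669510, plus strand) held 21 CpG and no hexamer, and the Nap1l5 window (chr6:58907077-58907376, minus strand) held 17 CpG and 2 hexamers. Over all 8 promoter windows of the 7 genes 4 held the hexamer. The others with 1 were Nnat and 1 of the 2 windows of the host Commd1, while the nested Zrsr1 (10 CpG), the host Blcap and the other Commd1 window held 0. Over 32851 RefSeq promoters of the same length the median was 7 CpG, 11.6% held the hexamer and 1.53% held it more than once. As many CpG as in the Mcts2, H13 and Nap1l5 windows were found in 18.4%, 24.8% and 31.4% of promoters. The shares with the hexamer were not matched for CpG content. In the annotation Mcts2 (chr2:152687148-152687946) starts 17.7 kb inside H13 (chr2:152669422-152708668), on the same strand. Nap1l5 (chr6:58905233-58907126) lies inside Herc3 on the opposite strand, with its 3′ end 73.8 kb from the start of Herc3. These are matches of letters to a reference genome, and neither methylation nor binding was measured.

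Mcts2 was low in blood-derived iPSC and near or above the ESC level in iPSC from fibroblasts and MEFs. Its log2 intensity ran from -0.30 to 3.57 with a median of 1.02 in the 31 blood-derived clones, from 3.43 to 4.09 (median 3.86) in the 11 fibroblast-derived clones and from 3.40 to 3.72 (median 3.43) in the 6 MEF-derived clones. The 4 ESC clones had 3.45, 3.45, 3.48 and 3.46. Of the blood-derived clones, 30 of 31 lay below the lowest ESC clone and below the lowest fibroblast-derived clone, and the exception was the granulocyte-derived clone iPSC-43 at 3.57. Averages were 1.17 ± 0.89 in blood-derived (SD, n = 31), 3.80 ± 0.22 in fibroblast-derived (n = 11) and 3.48 ± 0.12 in MEF-derived iPSC (n = 6), and 3.46 ± 0.01 in ESC (n = 4). With cell type and animal in the fit, blood-derived minus fibroblast-derived iPSC was -2.36 (SE 0.21), and with equal weight for each origin group blood-derived iPSC minus ESC was -2.26 (SE 0.215). These differences restate the choice of the gene. In the first contrast 47.5% of all probe sets passed the threshold, an adjusted p under 0.05.

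**Figure D1:**
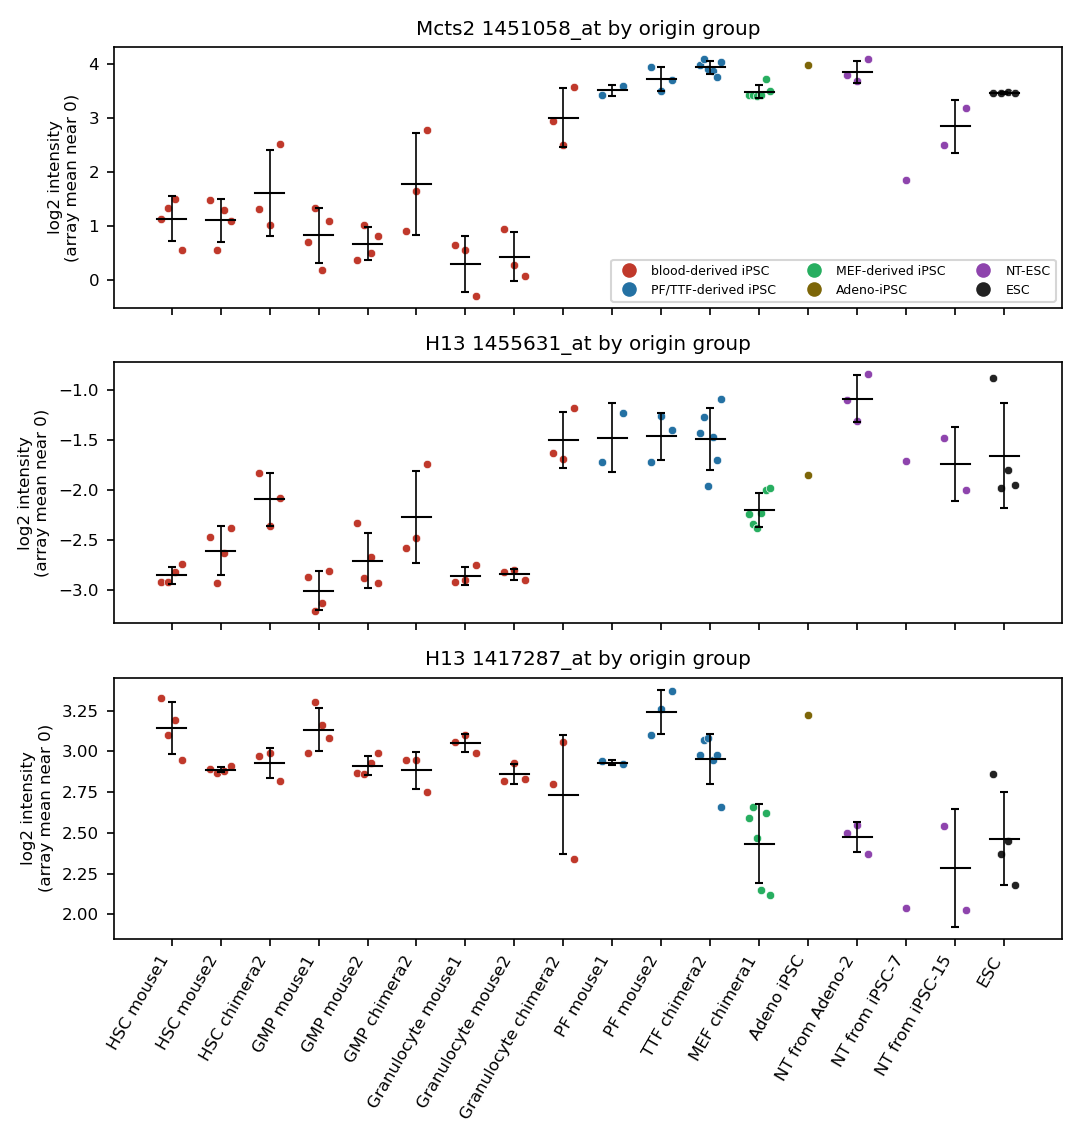
Log2 intensity (array mean near 0) of Mcts2 and of H13 probe sets 1455631_at and 1417287_at in each clone, by origin group, with ESC at the right; points are clones, lines are group means and bars 1 SD. Blood-derived clones of mouse 1 and mouse 2 sit between -0.30 and 1.50 in Mcts2, and the granulocyte-derived clones of chimera 2 sit at 2.49 to 3.57, next to ESC at 3.45 to 3.48.

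The animals differed in how low the gene was. In blood-derived clones Mcts2 averaged 0.79 ± 0.55 in mouse 1 (SD, n = 11), 0.76 ± 0.45 in mouse 2 (n = 11) and 2.13 ± 0.94 in chimera 2 (n = 9). The fibroblast-derived clones of the same animals averaged 3.50, 3.71 and 3.94, so that blood minus fibroblast was -2.71, -2.95 and -1.81 within the 3 animals. No blood-derived clone of mouse 1 or mouse 2 exceeded 1.50, whereas the 9 of chimera 2 spread from 0.91 to 3.57. The granulocyte-derived clones of chimera 2 had 2.94, 2.49 and 3.57, those of mouse 1 had 0.64, 0.56 and -0.30, and those of mouse 2 had 0.94, 0.28 and 0.07. Granulocyte-derived clones thus formed both the lowest groups (0.30 in mouse 1, 0.43 in mouse 2) and the highest blood group (3.00 in chimera 2). In the order of all 18 groups, each group's range overlapped that of its neighbour, apart from the single NT-ESC of iPSC-7 at 1.84 and the NT-ESC of iPSC-15 at 2.50 and 3.19. Over HSC-, GMP- and granulocyte-derived clones the averages were 1.25 ± 0.53, 1.03 ± 0.72 and 1.24 ± 1.39. Within origin groups Mcts2 had an SD of 0.42, at the 98.9th percentile of all probe sets, against a median of 0.16.

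Fibroblast marker levels moved with class as well. They averaged 1.28 in blood-derived and 1.74 in fibroblast-derived clones of mouse 1, 0.71 and 2.27 in mouse 2, and 0.71 and 1.68 in chimera 2. In mouse 1 the marker levels overlapped, at 0.84 to 2.00 in blood-derived and 1.73 to 1.75 in fibroblast-derived clones, and Mcts2 was -0.30 to 1.50 in the blood-derived and 3.43 and 3.58 in the 2 fibroblast-derived clones. MEF-derived iPSC and ESC had low marker means of 0.54 and 0.57 and Mcts2 means of 3.48 and 3.46. The part of these markers in the Mcts2 values was not tested.

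In iPSC from MEFs Mcts2 was not called against ESC. MEF-derived iPSC minus ESC was 0.02 (SE 0.08, adjusted p = 0.971, limma with Benjamini-Hochberg adjustment over 22626 probe sets), in a comparison that called 0.0354% of all probe sets. Fibroblast-derived iPSC minus ESC was 0.26 (SE 0.24), a description, since these clones are part of the contrast that chose the gene. In that comparison 38.9% of probe sets were called (18.6% higher and 20.3% lower). Its SE rests on a spread shared over all origin groups. The SD of Mcts2 was 0.30 to 0.94 in the blood-derived groups, 0.10 to 0.22 in the fibroblast-derived groups and 0.01 in ESC. Of the fibroblast-derived clones 10 of 11 lay above the highest ESC clone. Comparisons of the blood cell of origin called 0% of all probe sets by limma, both in granulocyte- minus HSC-derived iPSC (739 probe sets at an unadjusted p under 0.05) and in GMP- minus HSC-derived iPSC (801 unadjusted). For Mcts2, whose spread over these groups was part of its choice, the differences were -0.07 and -0.22 and are a description. The parent gene Mcts1, on the X chromosome, averaged 3.14 ± 0.10 in blood-derived (SD, n = 31) and 3.16 ± 0.10 in fibroblast-derived iPSC (n = 11), and 2.89 ± 0.07 in ESC (n = 4). Mcts1 rose by 0.24 (SE 0.04, adjusted p = 6.32e-05, limma) in blood-derived and by 0.25 (SE 0.05, adjusted p = 1.11e-04, limma) in fibroblast-derived iPSC, each against the same ESC clones.

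Probe sets of the host H13 split in 2 directions. In mean level over all arrays, 1417287_at lay at the 83.4th percentile of all probe sets. The others, 1455631_at, 1428855_at, 1428856_at and 1438865_at, were low, at 26.0, 34.9, 37.3 and 14.7. Quality of detection of these low probe sets was not analysed here. Probe set 1455631_at, annotated from an expressed sequence tag, followed Mcts2. It ran from -3.21 to -1.18 (median -2.75) in blood-derived, from -1.96 to -1.09 (median -1.43) in fibroblast-derived and from -2.38 to -1.98 (median -2.24) in MEF-derived iPSC. The ESC clones had -0.88, -1.98, -1.80 and -1.95. Of the blood-derived clones 26 of 31 lay below the lowest ESC clone, and the other 5 were all from chimera 2, among them its 3 granulocyte-derived clones at -1.63, -1.69 and -1.18. The mean was -2.56 ± 0.49 in blood-derived iPSC (SD, n = 31) and -1.65 ± 0.52 in ESC (n = 4), and blood-derived iPSC minus ESC was -0.87 (SE 0.14, adjusted p = 1.18e-05, limma). In that comparison 25.0% of all probe sets were called, 12.6% higher and 12.3% lower. Fibroblast-derived iPSC minus ESC was 0.18 (SE 0.16, adjusted p = 0.387, limma), and without the high clone ESC-1 it was 0.44 and passed the test (adjusted p = 0.0199). MEF-derived iPSC differed from ESC by -0.54 (SE 0.19), with an adjusted p of 0.483 by limma, and 5 of the 6 clones were below the lowest ESC clone. Without ESC-1 that difference was -0.29 (adjusted p = 0.596, limma).

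Probe set 1428855_at, from another H13 transcript, went the same way by less. It ran from -1.90 to -1.30 (median -1.62) in blood-derived, from -1.74 to -1.08 (median -1.22) in fibroblast-derived and from -1.61 to -1.40 in MEF-derived iPSC, and was -1.15, -1.39, -1.53 and -1.19 in ESC. The fall in blood-derived iPSC was -0.29 (SE 0.08, adjusted p = 0.00655, limma), and without ESC-1 it no longer passed the test (-0.235, adjusted p = 0.0505). The groups overlapped in this probe set, with 19 of 31 blood-derived clones below the lowest ESC clone.

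Probe set 1417287_at, annotated from the RefSeq messenger RNA of H13, rose in both classes. It ran from 2.34 to 3.33 (median 2.95) in blood-derived, from 2.66 to 3.37 (median 2.98) in fibroblast-derived and from 2.12 to 2.66 in MEF-derived iPSC, and ESC had 2.86, 2.37, 2.45 and 2.18. Against the shared ESC clones it was 0.48 higher in blood-derived (SE 0.09, adjusted p = 9.33e-05, limma) and 0.58 higher in fibroblast-derived iPSC (SE 0.10, adjusted p = 2.14e-05, limma). A total of 25 of 31 blood-derived and 10 of 11 fibroblast-derived clones lay above the highest ESC clone, and in MEF-derived iPSC the difference was -0.03 (SE 0.15). Within the blood-derived clones iPSC-43, the clone with the highest Mcts2, had the lowest value at 2.34. The part in this rise of the fibroblast markers given above, which were also higher in fibroblast-derived iPSC, was not tested. The 2 other H13 probe sets moved little: 1438865_at rose by 0.36 in fibroblast-derived iPSC (SE 0.10, adjusted p = 0.00378, limma) and was 0.17 higher in blood-derived iPSC (adjusted p = 0.167), and 1428856_at was 0.06 above ESC in blood-derived and 0.16 above it in fibroblast-derived iPSC (adjusted p of 0.727 and 0.278).

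**Figure D2:**
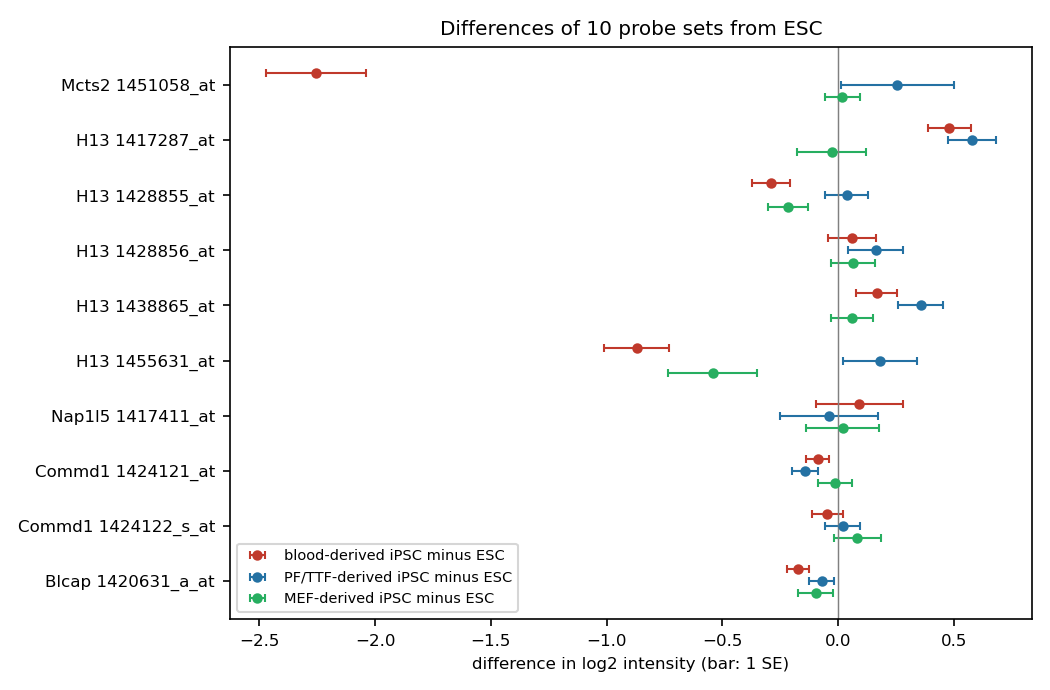
Differences in log2 intensity from the same 4 ESC clones for all 10 probe sets, in blood-derived, PF/TTF-derived (fibroblast) and MEF-derived iPSC; points are fitted differences and bars 1 SE. Mcts2 and H13 1455631_at lie at -2.26 and -0.87 in blood-derived iPSC, H13 1417287_at lies at 0.48 and 0.58 in blood- and fibroblast-derived iPSC, and the points of Nap1l5, Commd1 and Blcap lie between -0.17 and 0.09.

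The blood-to-fibroblast difference differed between the animals in H13 1455631_at and 1417287_at. In 1455631_at the blood-derived clones averaged -2.91 in mouse 1, -2.71 in mouse 2 and -1.95 in chimera 2, and fibroblast-derived clones averaged -1.47, -1.46 and -1.49. Blood minus fibroblast was thus -1.43, -1.25 and -0.46 within the 3 animals, and the difference between animals passed the interaction test (adjusted p = 0.00715, limma F test, 18.4% of all probe sets called). That call was lost without chimera 2 (adjusted p = 0.675). In 1417287_at the difference was 0.18 in mouse 1, -0.36 in mouse 2 and -0.11 in chimera 2 (interaction adjusted p = 0.0164, limma), so its direction was not the same in the 3 animals. H13 1428855_at, 1428856_at and 1438865_at did not pass the interaction test (adjusted p of 0.39, 0.708 and 0.461, limma F test). Fibroblast-derived clones were PF in mouse 1 and mouse 2 and TTF in chimera 2, so animal and preparation cannot be told apart. The animals also differed over all clones, with cell type in the fit, in 5 of the 9 probe sets other than Mcts2, in a comparison that called 42.5% of all probe sets, and 4 of these 5 calls (all but Blcap) were lost without chimera 2. For 1455631_at this spread between animals was 0.69 (adjusted p = 7.56e-05, limma), and without chimera 2 it was 0.17 (adjusted p = 0.138).

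Clone by clone, Mcts2 and H13 were compared within each class, because the classes form separate clusters in Mcts2. In the blood-derived clones, whose Mcts2 values chose the gene, the correlations are a description with no test. With each animal's mean taken off, Mcts2 and 1455631_at had r = 0.57 and rho = 0.44 over the 31 clones. Without the 2 clones farthest from the median in Mcts2 r was 0.35, and with cell type means also taken off it was 0.38. Within single animals r was 0.85 over the 9 clones of chimera 2 (rho = 0.85), -0.19 in mouse 1 and 0.31 in mouse 2, 11 clones each. The 9 clones of chimera 2 span 3 cell types of origin, and its granulocyte-derived clones had means of 3.00 in Mcts2 and -1.50 in 1455631_at. In the same 9 clones 1417287_at ran the other way (r = -0.74). The pooled relation therefore rests on chimera 2, and whether it differs between the animals was not tested.

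**Figure D3:**
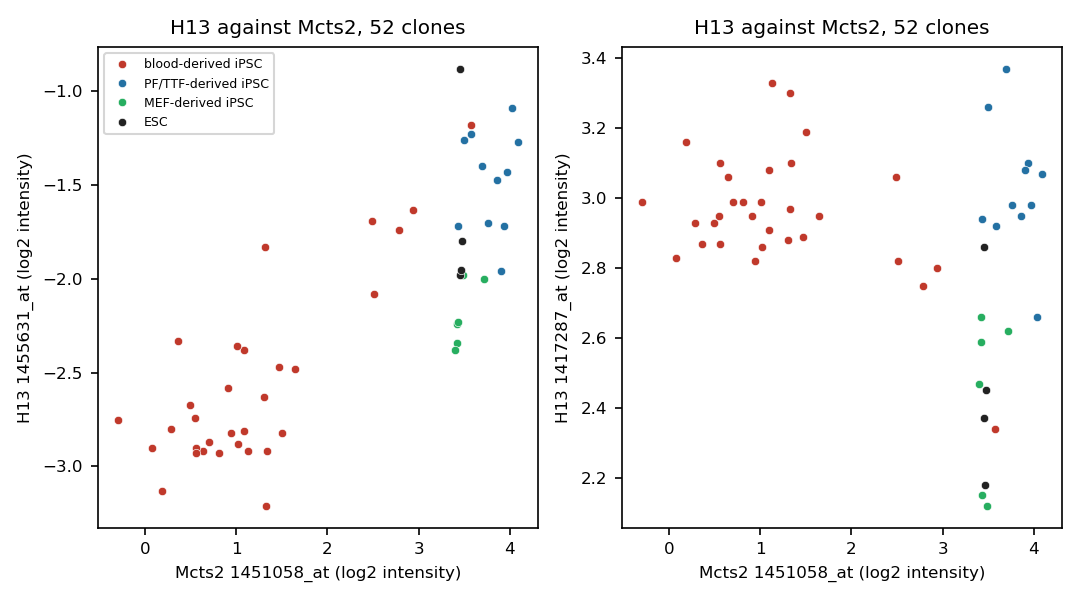
H13 probe sets 1455631_at (left) and 1417287_at (right) against Mcts2, in log2 intensity, with 1 point for each of 48 iPSC and 4 ESC clones. Blood-derived clones spread along Mcts2 from -0.30 to 3.57, and the clone at 3.57 has -1.18 in 1455631_at and 2.34 in 1417287_at.

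In the 11 fibroblast-derived clones no relation of an H13 probe set with Mcts2 passed the test (r from -0.35 to 0.17, permutation p of 0.862 for each, adjusted over 15 relations). Without the 2 clones farthest from the median in Mcts2, r in 1455631_at was 0.72, against 0.16 over all 11. In the other H13 probe sets it was then -0.33 to 0.38. In the 6 MEF-derived clones 1428856_at followed Mcts2, with r = 0.96 (exact permutation p = 0.00139, adjusted p = 0.0208) and rho = 1.0 (exact permutation p = 0.00278, adjusted p = 0.0417). The clone iPSC-5 was highest in both, at 3.72 in Mcts2 and -1.0 in 1428856_at, where the other 5 had 3.40 to 3.49 and -1.39 to -1.25. Leaving out the 2 clones farthest from the median gave r = 0.70, and after quantile normalization the call was lost (r = 0.91, exact permutation adjusted p = 0.0625). The per-clone difference of Mcts2 minus H13 1417287_at averaged 1.04 ± 0.24 in MEF-derived iPSC (SD, n = 6) and 1.00 ± 0.29 in ESC (n = 4), a shift of 0.05 (exact permutation p = 0.805, 2-sided). Against 1455631_at in place of that probe set the shift was 0.56 (exact permutation p = 0.00476, the smallest that 210 arrangements can give), where 1455631_at averaged -2.20 in MEF-derived iPSC and -1.65 in ESC. That shift was 0.30 without ESC-1 (exact permutation p = 0.0119, the smallest that 84 arrangements can give). Against 1428855_at, 1428856_at and 1438865_at the shifts were 0.24, -0.05 and -0.04 (exact permutation p of 0.0762, 0.505 and 0.705). These p-values are not adjusted for the choice of host probe set.

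Over all 52 ESC and iPSC arrays, H13 1455631_at had the highest correlation with Mcts2 of the 22625 other probe sets (r = 0.83), and 1428855_at ranked 292 (r = 0.64). H13 1417287_at had r = -0.37. These values follow the separation of blood-derived clones from the rest and are a description of it. With 1 probe set for each of 11807 genes, taken by highest mean, the 5 genes most like Mcts2 were Schip1 (r = 0.83), Sdcbp (0.81), Rabl3 (0.80), Tnrc6a (0.79) and Hey1 (0.79). Nap1l5 had no close match, with Cntnap2 (0.47), Hmgxb4 (0.43), Anks1 (0.43), Dbndd1 (0.43) and Slc30a7 (0.41) nearest.

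Nap1l5, a nucleosome assembly protein copy that is read from the paternal chromosome, showed no fall like that of Mcts2 in its probe set. That probe set was low, with a mean of -2.28 over all arrays, at the 24.1th percentile of all probe sets. Quality of detection was not analysed here, so whether the probe set could show a fall is not known. It ran from -3.04 to -1.62 (median -2.06) in blood-derived, from -3.07 to -1.74 (median -2.04) in fibroblast-derived and from -2.60 to -1.74 (median -2.30) in MEF-derived iPSC, and ESC had -2.50, -2.06, -2.34 and -2.13. All groups overlapped. The differences from ESC were 0.09 (SE 0.19), -0.04 (SE 0.21) and 0.02 (SE 0.16) in these classes, with adjusted p of 0.773, 0.900 and 0.987 by limma. Its SD within groups was 0.37, at the 97.8th percentile. Single clones stood low within their groups, such as iPSC-47 at -3.07 where the 5 other TTF-derived clones had -2.04 to -1.74. Nap1l1, a related gene with 6 probe sets, had 0 called probe sets in the same 3 comparisons.

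Commd1 and Blcap, the hosts of Zrsr1 and Nnat, varied least. Commd1, which acts in copper handling and in control of NF-kappaB, had a within-group SD of 0.09 in 1424121_at and 0.12 in 1424122_s_at, and Blcap had 0.08. Commd1 1424121_at ran from 3.51 to 3.98 in blood-derived and from 3.58 to 3.95 in fibroblast-derived iPSC and had 3.66, 3.85, 3.87 and 3.95 in ESC. Fibroblast-derived iPSC minus ESC was -0.14 (SE 0.06, adjusted p = 0.0397, limma), a call that was lost without ESC-2, ESC-3 or ESC-4 (adjusted p from 0.101 to 0.186), after quantile normalization (-0.105, adjusted p = 0.122), with PF-derived clones only (adjusted p = 0.0513) and with TTF-derived clones only (adjusted p = 0.131). Blood-derived iPSC minus ESC was -0.09 (SE 0.05, adjusted p = 0.210, limma), and without ESC-1 it passed the test (-0.144, adjusted p = 0.0365). Blcap ran from 1.98 to 2.50 in blood-derived iPSC and had 2.38, 2.48, 2.52 and 2.25 in ESC. It was lower in blood-derived iPSC, with a difference of -0.17 (SE 0.05, adjusted p = 0.00562, limma), and that call was lost without ESC-2 (adjusted p = 0.0524) or ESC-3 (adjusted p = 0.0775). None of the 9 probe sets other than Mcts2 was called in MEF-derived iPSC minus ESC, in the comparisons of blood cell types of origin by limma, or in the 6 NT-ESC against ESC or their donors. Almost no probe set of the array was called there: 0.0354% in MEF-derived iPSC, 0% between blood cell types, and 0.0221% and 0.0575% in NT-ESC. The lack of calls is therefore no trait of these genes.

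**Figure D4:**
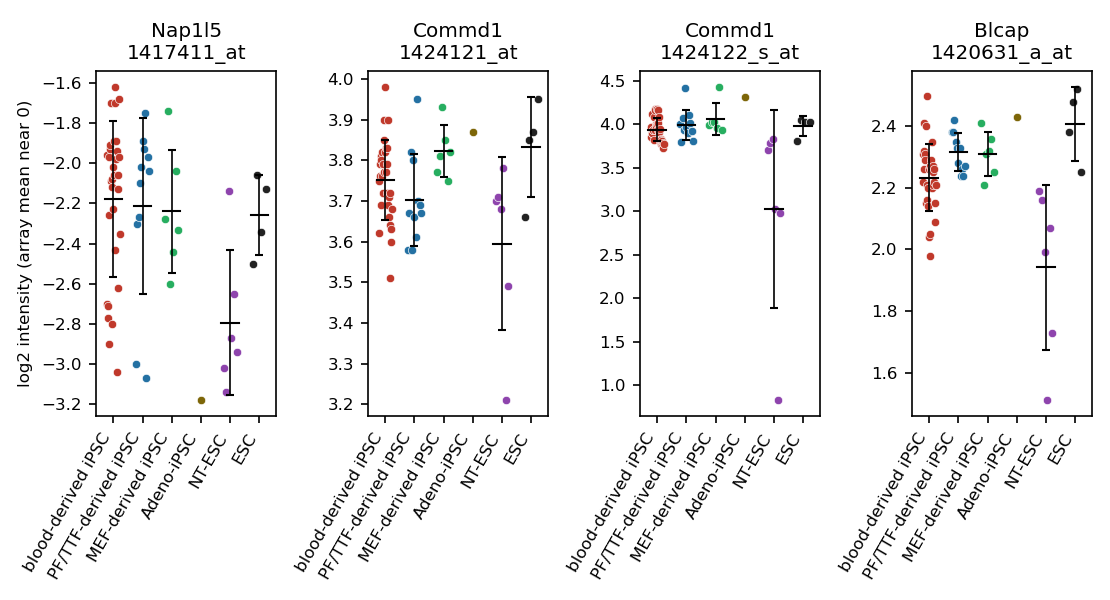
Log2 intensity (array mean near 0) of Nap1l5, both Commd1 probe sets and Blcap in each line by class, with ESC at the right; points are lines, horizontal lines are means and bars 1 SD. Ranges of blood-, PF/TTF- and MEF-derived iPSC overlap ESC, the single Adeno-iPSC lies outside the ESC range in Nap1l5 (-3.18) and Commd1 1424122_s_at (4.32), and the lowest Commd1 1424122_s_at value, 0.83, is the NT-ESC subclone NT-8.

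The NT-ESC allow a line to be set against the iPSC whose nucleus it carries after passage through an egg. The subclones of Adeno-2 had Mcts2 at 3.79, 3.68 and 4.08, against 3.97 in that donor line. NT-7 had 1.84, against 1.13 in its donor iPSC-7. NT-8 and NT-9 had 2.50 and 3.19, against 0.64 in their donor iPSC-15. All 3 NT-ESC of blood-derived iPSC were thus above their donor and below every ESC clone, while the Adeno-2 subclones were above every ESC clone. Those 3 NT-ESC are also the lines whose arrays stood apart, so a change in the lines and a difference of the arrays cannot be told apart. NT-ESC minus donor averaged 2.21 in the iPSC-15 family, 0.72 in the iPSC-7 family and -0.12 in the Adeno-2 family. No test is given for Mcts2 here, since the blood-derived donors are among the clones that chose it.

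H13 1455631_at was higher in 6 of 6 NT-ESC than in their donors, at -1.10, -1.31 and -0.84 in the Adeno-2 subclones against -1.85, at -1.71 in NT-7 against -2.92, and at -1.48 and -2.0 in NT-8 and NT-9 against -2.92. With donor as a block the difference was 1.02 (SE 0.19, adjusted p = 0.0604, limma). That comparison called 0.0575% of the 22626 probe sets, and 9031 had an unadjusted p under 0.05. Without the Adeno-2 family it was 1.19 and passed the test (adjusted p = 0.0385, with 18.4% of probe sets called). H13 1417287_at was lower in 6 of 6, by 0.52 to 1.29, with a difference of -0.90 (SE 0.17, adjusted p = 0.0604, limma). H13 1428855_at was also higher in 6 of 6, by 0.55 to 1.1, with a difference of 0.74 (SE 0.16, adjusted p = 0.0604, limma). None of these H13 differences passed the threshold over the 3 families. In the Adeno-2 family alone, without the arrays that stood apart, the subclones averaged 0.77 above the donor in 1455631_at and differed from it by -0.75 in 1417287_at.

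**Figure D5:**
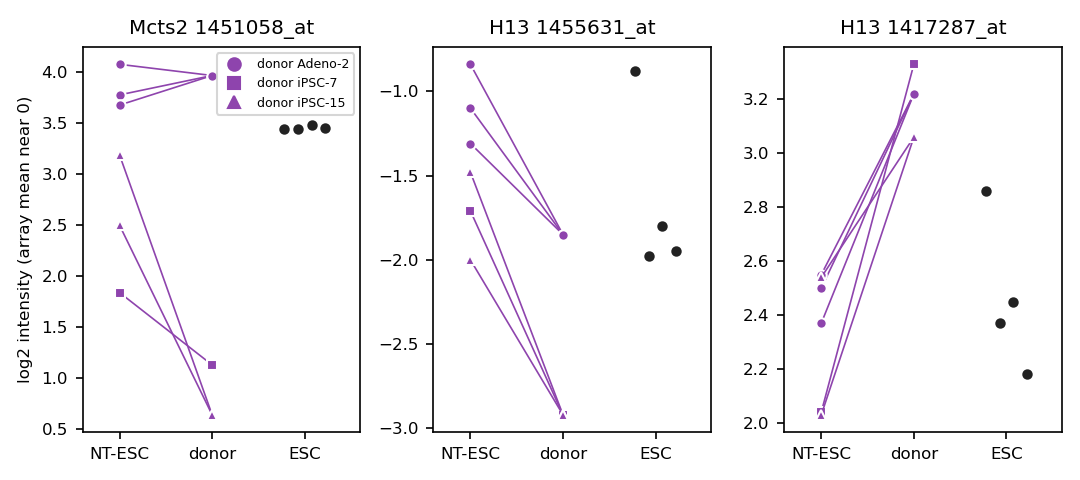
Log2 intensity of Mcts2, H13 1455631_at and H13 1417287_at in the 6 NT-ESC subclones, in the iPSC line each nucleus came from, and in 4 ESC clones; lines join a subclone to its donor and symbols mark the donor. Mcts2 is 1.84 to 3.19 in NT-ESC of blood-derived iPSC, whose arrays stood apart, against 0.64 and 1.13 in those donors and 3.45 to 3.48 in ESC.

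Against ESC, Mcts2 in the 6 NT-ESC differed by -0.28 (SE 0.39), where 0.0221% of probe sets were called. The 3 subclones whose arrays stood apart gave -0.95 alone. Both values are a description, since the donors of those 3 subclones are among the clones that chose the gene. With those arrays alone 55.9% of all probe sets were called, Nap1l5, Blcap, Commd1 1424122_s_at and H13 1438865_at among them. The 3 Adeno-2 subclones gave 0.39 (adjusted p = 0.0725, limma). Nap1l5 was -2.87, -2.65 and -2.94 in NT-7, NT-8 and NT-9 and -3.02, -3.14 and -2.14 in the Adeno-2 subclones, whose donor had -3.18, the lowest level of any line. Its difference from ESC was -0.56 in NT-7, NT-8 and NT-9 alone (adjusted p = 0.0173, limma) and -0.51 without them (adjusted p = 0.250). Blcap was below the lowest ESC clone in 6 of 6 NT-ESC, at 1.51 to 2.19, with a difference of -0.47 (SE 0.16, adjusted p = 0.270, limma). It was -0.64 in NT-7, NT-8 and NT-9 alone (adjusted p = 0.0129, limma) and -0.30 without them (adjusted p = 0.115).

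Of 52 other imprinted genes listed, 35 were measured by 56 probe sets. In MEF-derived iPSC minus ESC 0 rose and 5 fell (8.93% of the list, against 0.0354% of all probe sets; median difference -0.03, against -0.001 over all). All 5 were of Meg3 and Rian, the maternally read noncoding RNAs of the Dlk1-Dio3 region, such as Rian 1428055_at at -3.09 (SE 0.38, adjusted p = 0.0223, limma). These calls were lost without ESC-2, ESC-3 or ESC-4 and without iPSC-1, iPSC-3 or iPSC-5, where 0 probe sets were called. With 1 probe set per gene 0 were called as well. In blood-derived iPSC minus ESC 8 rose and 12 fell (35.7% of the list, against 25.0% of all probe sets; median -0.02, against 0.02 over all). The largest were in Rian and Meg3, and the paternally read Peg3 rose by 0.61 in 1417355_at (SE 0.12, adjusted p = 1.88e-04, limma). In fibroblast-derived iPSC minus ESC 10 rose and 15 fell (44.6%, near the 38.9% of all probe sets; median 0, against 0.02 over all), among them Tfpi2, which rose by 2.41 (SE 0.31), Dcn, also a fibroblast marker, which rose by 1.94 (SE 0.28), and Magel2, which rose by 0.93 (SE 0.18). In NT-ESC minus ESC 0 rose and 4 fell, again of Rian and Meg3. Mcts2 and Nap1l5 were not called in MEF-derived iPSC against ESC, where Meg3 and Rian probe sets were. In the 6 NT-ESC against ESC, Meg3 and Rian probe sets were called and Nap1l5 was not.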

How the data were processed

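RNA of 59 lines was measured on Affymetrix arrays. Per the labels' protocols, total RNA was extracted with a miRNeasy kit and biotinylated cRNA was made with an HT IVT kit. The deposited values are log2 intensities per probe set. How background, summarisation and scaling were handled is not given in the sources used here, and the number of arrays limits the precision. Probe sets were named from the platform annotation: 18003 had 1 gene, 287 several and 4336 none. Differences were fitted on the deposited values of all 22626 probe sets with limma 3.58.1 in R 4.3.3 (lmFit, eBayes), 2-sided, with Benjamini-Hochberg adjustment over all of them and a threshold of 0.05. The fits were tested on simulated data. Correlations used 100000 permutations, or all arrangements under 10 clones (scipy 1.17.1). Alternatives were quantile normalization, leaving out probe sets under the 40th percentile, 1 probe set per gene, trend and robust eBayes, leaving out clones, animals or donors, and a replicate block. The members and the lists (imprinted genes, imprint keepers, markers) were chosen with earlier results of these data known. Named genes were all members, their parents or relatives, the 5 genes most like each nested gene, and up to 4 list members per comparison by size plus Meg3 and Rian. Promoter windows came from RefSeq tables of GRCm38.p6.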

Additional observations from a re-analysis of the deposited data

Results flagged for a closer look

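Of 70 groups of 4 to 10 clones tested for a clone far from the rest, 10 held one, and chance alone gives about 1 in 20. The MEF-derived clone iPSC-5 stood high in 3 probe sets: Mcts2 at 3.72 (others 3.40 to 3.49), H13 1428856_at at -1.0 (others -1.39 to -1.25) and Commd1 1424122_s_at at 4.43 (others 3.94 to 4.03). ESC-1 was high in H13 1455631_at at -0.88 (others -1.98 to -1.80) and low in Commd1 1424122_s_at at 3.81 (others 4.03 to 4.05). Among TTF-derived clones of chimera 2, iPSC-46 was low in H13 1428855_at at -1.74 and high in Commd1 1424121_at at 3.95, iPSC-49 was low in H13 1417287_at at 2.66, and iPSC-47 was low in Nap1l5 at -3.07. The HSC-derived clone iPSC-8 of mouse 1 was high in Nap1l5 at -1.96 (others -2.77 to -2.70). The blood minus fibroblast difference of H13 differed between animals by limma's interaction test, with an adjusted p of 0.00715 in 1455631_at and 0.0164 in 1417287_at.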

How the results depend on the processing

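Of 770 alternative values of single probe sets, 734 were counted as the same. For most comparisons this means the same side of the threshold, and direction could change where neither value was called. For blood minus fibroblast it means a value within the within-group SD of the main one, with no threshold. The calls that changed on leaving out an ESC clone or chimera 2 stand beside their results. The blood minus fibroblast difference reversed within mouse 1 for H13 1417287_at (0.179) and Commd1 1424122_s_at (0.072), and the cause was not tested. The percent of probe sets called in MEF-derived iPSC minus ESC was 0.0663 without probe sets under the 40th percentile, 0 with 1 probe set per gene, 2.33 in 1 fit over ESC and all origin groups, and 0 to 0.053 without single clones. It was 0.115 with the clone number as a replicate block and 0.442 in the same 8 arrays without the block, a setting added after seeing the data. The numbers marked no shared source, same-numbered clones correlated at 0.043 to 0.497, and 2 of 4 correlated best with their own number. The share in blood-derived iPSC minus ESC was 37.8 without low probe sets (fewer tested) and 16.1 to 29.1 without single ESC clones. That of blood minus fibroblast was 30.4 within chimera 2 and 10.9 within mouse 1, and that of granulocyte minus HSC 0.00442 without mouse 2. Leaving out chimera 2, also added after seeing the data, gave 15 for any difference between animals and 4.25 for the interaction, which was 28.4 without low probe sets. NT-ESC minus ESC called 0.00847 with 1 probe set per gene, 0.0177 to 0.0398 without single ESC clones, 4.3 without the subclones of iPSC-7 and iPSC-15 and 55.9 with those 3 alone. NT-ESC minus donor called 0.0309 after quantile normalization, 0.0221 without low probe sets, 0.407 with trend and robust settings, and 18.4, 0 and 0.0221 without the Adeno-2, iPSC-7 and iPSC-15 families. For Mcts2 with H13 1455631_at in blood-derived clones r was 0.79 with no animal mean taken off and 0.38 with animal and cell type means taken off, without a test. After quantile normalization r in MEF-derived clones was 0.91 for 1428856_at (exact permutation adjusted p = 0.0625) and 0.76 for 1455631_at (exact permutation adjusted p = 0.0417). The Mcts2 minus H13 shift in MEF-derived iPSC was 0.56 against 1455631_at (0.30 to 0.67 without single clones) and -0.09 to 0.14 against 1417287_at without single clones. In NT-ESC it was -0.33 to 0.05 without single lines. These were added after seeing the data. None of the shifts in MEF-derived iPSC against 1417287_at passed the test, and those in NT-ESC are a description. The comparisons of Zrsr1, Nnat and Nap1l5 with a host were not run. Low-intensity probe sets limit the reading: 5 of the 10 lay below the 40th percentile of mean level, and quality of detection was not analysed here.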

Other observations

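Genes whose products keep or write imprints (13 of 19 measured, 26 probe sets) gave 12 higher and 5 lower calls in blood-derived iPSC minus ESC by limma (65.4% of the list, against 25.0% of all probe sets, with a median difference of 0.16, against 0.02 over all). In fibroblast-derived iPSC minus ESC 9 were higher and 3 lower (46.2%, near the 38.9% of all probe sets). Dnmt3a, a de novo DNA methyltransferase, rose in 1423066_at by 1.37 (SE 0.14) in blood-derived and by 1.00 (SE 0.16) in fibroblast-derived iPSC, each against the same ESC clones. Dnmt3b 1418351_a_at rose by 0.87 (SE 0.15) and 0.93 (SE 0.17) in these classes, and Trim28, the partner of ZFP57, by 0.30 (SE 0.06) and 0.25 (SE 0.06). Dppa3, a maternal factor that shields DNA methylation after fertilisation, was lower in blood-derived iPSC, with a difference of -0.64 (SE 0.15). In MEF-derived iPSC minus ESC 0 of the 26 probe sets passed the test by limma.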
